A study of Mus musculus with 16 samples.

Results

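Collagens are the main fibrous and sheet-forming proteins of the extracellular matrix, and the collagen chains were described here as a gene family in the mouse optic nerve head. Its members were all rows of the deposited table of raw read counts whose gene symbol is Col, a number, the letter a and a number, which gave 43 chains of 23337 genes. By the known structure of their proteins, 11 are fibrillar chains, 6 are type IV chains of basement membranes and 26 are of other types. The last comprise 6 beaded filament chains of type VI, 9 fibril-associated chains with interrupted helices (FACIT), 3 network-forming chains, 2 multiplexins, 4 transmembrane chains and 2 others. No measured value was used to choose them.

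The study profiled the glial lamina, the unmyelinated start of the optic nerve, of wild-type C57BL/6 mice by RNA sequencing. The 4 groups were young naïve mice of 13 weeks, aged naïve mice of 40 weeks, and young adult mice whose right anterior chamber had received saline or microbeads. Beads block the outflow of aqueous humour and so raise the pressure in the eye, and the injected groups were collected 4 weeks after injection, at the age of the young naïve mice. Each group had 4 libraries, and each library pooled 4 nerve heads from 2 male and 2 female mice, so that single animals and the sexes were not measured apart. RNA was taken from dissected tissue, which can hold astrocytes, vessels, meningeal sheath and adhering retina together.

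Every collagen molecule is wound from chains that share long stretches with glycine at regular intervals, and the types differ in how these molecules assemble. Fibrillar collagens such as types I, III and V form the cross-striated fibrils that give the sheath and the sclera their tensile strength. Type IV collagen forms the sheet of basement membranes around vessels, along the pia and beneath the astrocyte end feet that face them. Type VI forms beaded filaments next to cell surfaces, FACIT chains sit on the surface of fibrils, type VIII forms lattices, and the multiplexins XV and XVIII join basement membranes to the matrix around them. In the lamina of large mammals collagen beams carry the axon bundles, whereas the glial lamina of the mouse has few such beams and is formed mainly by astrocytes.

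Levels are given as CPM, counts scaled to a common library size after normalisation for library composition (TMM), and levels of different genes were compared per kilobase of exon. The 4 values of a group stand in the order of replicates 1 to 4. Replicate 2 of the aged group and replicate 4 of the saline-injected group had been left out of the comparisons by the study as outliers, and the tests here used the other 14 libraries unless 16 are named. Differences were tested with edgeR's quasi-likelihood test over 14541 genes, of which 37 were collagen chains. Fold changes are given as log2 ± SE with p adjusted by Benjamini and Hochberg over all genes tested, and a gene was called, and is said to be higher or lower, where the change reached 1.5-fold with p below 0.01 and an adjusted p below 0.05.

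Total counts ran from 6213789 to 10726122 per library, and collagen chains took between 0.159% and 0.537% of them. Both extremes came from the excluded libraries: aged replicate 2 had the lowest share and saline replicate 4 the highest. The libraries also differed in how levels went with gene length. Spearman's rho between exon length and the log2 ratio to the young mean, over 14025 genes, was 0.37 to 0.45 in the 3 other aged libraries and 0.41 to 0.47 in the microbead-injected libraries. It was -0.21 to -0.18 in saline replicates 1 to 3, 0.48 in saline replicate 4, -0.25 in aged replicate 2 and between -0.39 and 0.27 in the young libraries. RNA concentration, as the paper lists it, also differed between groups. It was highest in the aged pools, lowest in saline replicates 1 to 3, and within the microbead range in saline replicate 4. The part of RNA concentration in these trends and in the collagen results was not tested. Collagen transcripts were long, with a median of 6086 bases among the tested chains against 2867 among all genes tested, so the main counts of called chains are also given after the length trend of each library was removed. Astrocyte markers were present throughout, with summed levels of 8538 to 17677 CPM in the 14 libraries, while markers of skeletal muscle summed to at most 32.9 CPM in any library. The markers of photoreceptors and retinal pigment epithelium ran from 266 to 6120 CPM over the 16 libraries and differed several-fold within groups. Their part in the collagen results was not tested.

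Fibrillar chains were the largest class by summed CPM, which is not corrected for exon length, in every library. Their share was 46.0% in aged replicate 2 and 65.1% in saline replicate 4. Summed over the 11 chains, they took 55.8% to 57.6% of the collagen CPM in the young libraries, 49.8% to 56.8% in aged replicates 1, 3 and 4, 60.4% to 62.6% in saline replicates 1 to 3 and 61.9% to 64.8% in the microbead-injected libraries. In CPM the fibrillar sum was 1670.3 to 1851 in the young, 1295 to 1844 in the kept aged, 1819.7 to 2596 in the saline-injected and 2559 to 3088 in the microbead-injected libraries. The microbead-injected libraries thus lay above every young and every kept aged library, and overlapped the saline-injected range. Aged replicate 2 was at 769 CPM and saline replicate 4 at 3428 CPM. The difference between group means of the log2 of this sum was -0.22 for aged against young and 0.36 for microbead-injected against saline-injected nerves. The 6 type IV chains summed to 234 to 268 CPM in the young, 219 to 264 CPM in the kept aged, 223 to 281 CPM in the kept saline-injected and 280 to 374 CPM after microbeads. The aged range overlapped the young and the microbead range overlapped the saline. These sums are descriptions and were not tested.

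**Figure D1:**
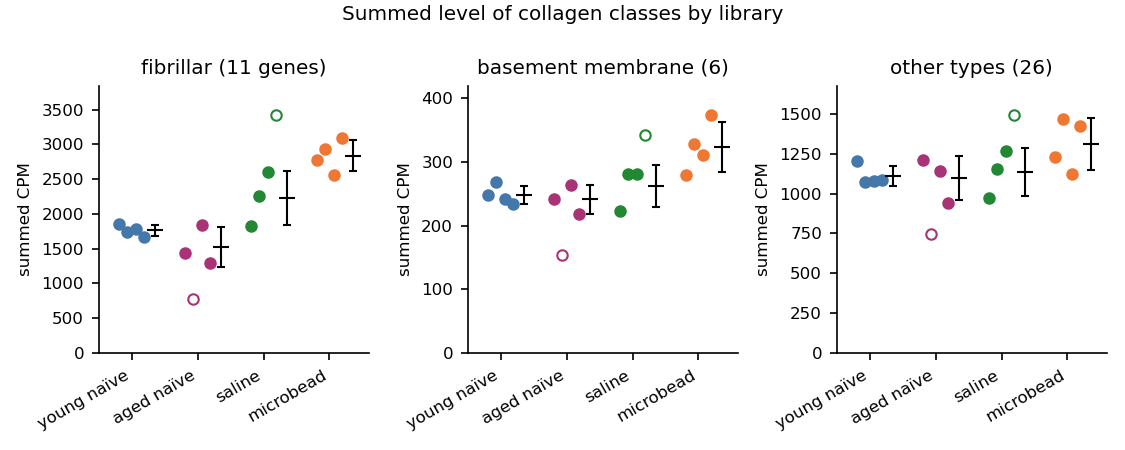
Summed CPM of the fibrillar, basement membrane and other collagen chains in each of the 16 libraries, by group, on linear axes. Filled points are the 14 libraries used in the tests, open points the 2 left out, and the black bar is the mean ± SD of the filled points. The fibrillar sum of the 4 microbead-injected libraries (2559 to 3088 CPM) lies above that of all young libraries (1670.3 to 1851 CPM).

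Per kilobase of exon, Col1a2 was the most abundant chain, with a mean over the 14 libraries of 196 CPM per kilobase, followed by Col3a1 at 104 and Col1a1 at 76.1. Col8a1 (52.8), Col6a2 (48.4) and Col6a1 (44.4) came next, and Col18a1 (19.6), Col8a2 (19.0), Col9a3 (18.7) and Col9a2 (13.8) completed the first 10 on this scale. The order mixes sheath fibrils, beaded filaments, a type VIII lattice and FACIT chains, and no type IV chain is among these 10. Within the order, neighbours such as Col18a1, Col8a2 and Col9a3 differ by less than their spread between libraries.

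To show how unlike the start regions of the members are, 150 bases directly before the annotated start are printed for a fibrillar and 2 network-forming chains. They were read from the promoter table of RefSeq on GRCm38.p6, 5′ to 3′ on the strand of the gene, and capitals mark a TATAAA motif or the GC box GGGCGG, which reads CCGCCC on the other strand.
Col3a1, chr1:45311388-45311537, plus strand: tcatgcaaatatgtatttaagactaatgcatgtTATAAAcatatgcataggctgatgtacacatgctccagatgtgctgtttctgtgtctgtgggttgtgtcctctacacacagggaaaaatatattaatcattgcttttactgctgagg
Col8a1, chr16:57754738-57754887, minus strand: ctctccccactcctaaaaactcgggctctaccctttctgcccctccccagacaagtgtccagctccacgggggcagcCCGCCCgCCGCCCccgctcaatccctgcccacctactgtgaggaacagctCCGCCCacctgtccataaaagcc
Col10a1, chr10:34389831-34389980, plus strand: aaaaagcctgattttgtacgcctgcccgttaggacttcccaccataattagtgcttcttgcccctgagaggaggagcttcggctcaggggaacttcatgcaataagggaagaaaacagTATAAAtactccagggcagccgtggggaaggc
The Col3a1 window held TATAAA beginning 117 bases before the start and the Col10a1 window held it 32 bases before the start, while Col8a1 held 3 GC boxes and no TATAAA. The Col10a1 window lies within Nt5dc1, which is transcribed on the opposite strand. RefSeq windows matched 35 of the 43 members, with 38 windows in all. On either strand, 19 of the 38 windows (50.0%) held GGGCGG or its complement CCGCCC against 28.6% of the 32851 windows of all genes. CCAAT or its complement ATTGG was in 8 (21.1%) against 24.5%, and TATAAA or its complement TTTATA in 4 (10.5%) against 7.57%. A motif match is a description of letters, and the windows of genes that share a start region are not independent.

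Type I and type III collagen form the bulk of fibrils in sheath and sclera. Col1a2 encodes the α2 chain of type I, and stood at 937, 842, 913 and 840.2 CPM in the young, 680.0, 342, 806 and 610.3 in the aged, 865, 1076, 1269 and 1624 in the saline-injected and 1213, 1363, 1252 and 1436 in the microbead-injected libraries. Every aged library was below every young library, and every microbead-injected library was above both naïve groups, yet the microbead-injected and saline-injected groups overlapped. The log2 fold change was -0.32 ± 0.12 (adjusted p = 0.0290) for aged against young, which is under the fold minimum, 0.29 ± 0.12 (adjusted p = 0.0626) for microbead-injected against saline-injected and 0.90 ± 0.12 (adjusted p = 7.37e-05) for microbead-injected against aged nerves, the last of which was called. With all 16 libraries the last was 1.10 (adjusted p = 0.00215). With the length trend removed Col1a2 was also called lower with age, at -0.62 (adjusted p = 0.000571).

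Col1a1, the α1 chain of the same molecule, differed from Col1a2 in the place of the aged group. It stood at 249.6, 249, 256 and 208 CPM in the young, 281, 82.6, 352 and 223 in the aged, 298, 377, 399 and 697 in the saline-injected and 532, 550.4, 460.4 and 568 in the microbead-injected libraries. Apart from saline replicate 4, the microbead-injected libraries were above all others, and the aged group spread widely on both sides of the young. Fold changes were 0.26 ± 0.13 (adjusted p = 0.119) for aged against young and 0.55 ± 0.14 (adjusted p = 0.00499) for microbead-injected against saline-injected nerves, neither of them called, the second under the fold minimum. Col1a1 passed that minimum without saline replicate 2 (0.59), saline replicate 3 (0.64) or microbead replicate 3 (0.62), but was at 0.25 (adjusted p = 0.662) with 16 libraries and 0.27 (adjusted p = 0.176) with the length trend removed. Against aged nerves Col1a1 was higher after microbeads, at 0.87 ± 0.14 (adjusted p = 0.000342).

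Per kilobase, the ratio of Col1a1 to Col1a2 was 0.271 to 0.323 in the young and 0.401 to 0.478 in the kept aged libraries. It was 0.344 to 0.383 in saline replicates 1 to 3 and 0.403 to 0.480 in the microbead-injected libraries. Aged replicate 2, at 0.264, and saline replicate 4, at 0.470, fell outside the range of their groups. These ratios are descriptions, and in both excluded libraries the trend with gene length also departed from the rest of the group; the part of that trend in the ratios was not tested.

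Col3a1, on chromosome 1 from 45311538 to 45349706, encodes the single chain of type III. Its levels were 489, 470.4, 458 and 451 CPM in the young, 336, 188, 522 and 309 in the aged, 503, 651, 757 and 887 in the saline-injected and 814, 815, 662 and 857 in the microbead-injected libraries. The microbead-injected group overlapped neither naïve group but overlapped the saline-injected group. The log2 fold change was -0.25 ± 0.16 (adjusted p = 0.227) for aged against young, 0.30 ± 0.16 (adjusted p = 0.180) for microbead-injected against saline-injected, and 1.00 ± 0.17 (adjusted p = 0.000753) for microbead-injected against aged nerves, the only call.

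Types V and XI are the minor fibrillar collagens that start fibrils and set their width. Col5a2 was at 41.1, 38.2, 34.9 and 38.4 CPM in the young, 24, 17.9, 29.5 and 19.3 in the aged, 35.7, 35.8, 41.5 and 47.7 in the saline-injected and 38.4, 43.1, 28.9 and 51.9 in the microbead-injected libraries. All aged libraries were below all young libraries, and Col5a2 was the only fibrillar chain called between them, at -0.64 ± 0.17 (adjusted p = 0.00461). Without aged replicate 4 the change was -0.50 and was not called. It did not differ detectably between microbead-injected and saline-injected nerves, at 0.10 ± 0.16 (adjusted p = 0.664).

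Col5a1, its partner in the type V molecule, stood at 97.8, 96.6, 83.4 and 92 CPM in the young, 80.3, 109.7, 92.9 and 96.9 in the aged, 72.1, 80.4, 84.6 and 119 in the saline-injected and 111, 113, 105 and 118 in the microbead-injected libraries. The aged and young groups overlapped, at -0.03 ± 0.09 (adjusted p = 0.83), and microbead-injected libraries were above the 3 kept saline-injected libraries but not above saline replicate 4. The log2 fold change after microbeads was 0.49 ± 0.09 (adjusted p = 0.000547), under the fold minimum, and it was 0.32 (adjusted p = 0.224) with 16 libraries and 0.10 (adjusted p = 0.531) with the length trend removed.

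Among fibrillar chains, Col11a2 was called after microbeads against saline. It was low, at 5.03, 5.08, 5.03 and 5.92 CPM in the young, 4.25, 1.06, 2.67 and 3.31 in the aged, 3.31, 6.24, 5.20 and 7.11 in the saline-injected and 7.87, 6.88, 8.12 and 10.8 in the microbead-injected libraries. The aged libraries were below all young libraries, and the microbead-injected ones were above the kept saline-injected ones, with saline replicate 4 inside their range. The fold change was 0.76 ± 0.23 (adjusted p = 0.0153) after microbeads and -0.61 ± 0.24 (adjusted p = 0.0456) with age, where it missed the p threshold. With the length trend removed it was called lower with age, at -0.90 (adjusted p = 0.00772). The call after microbeads was lost without saline replicate 1 (0.55), without microbead replicate 4 (0.63), with the length trend removed (0.43, adjusted p = 0.232), with 16 libraries (0.61, adjusted p = 0.253) and within library code 4 (0.57). Col11a1, the other chain of type XI, ran from 14.5 to 28.1 CPM over the 16 libraries and was called in no comparison.

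The remaining fibrillar chains were Col5a3, Col2a1, Col27a1 and Col24a1. Col5a3 was at 5.59 to 16.6 CPM and differed by 0.66 ± 0.23 (adjusted p = 0.0333) after microbeads, which did not pass the p threshold. Col2a1, the cartilage and vitreous collagen, was between 0.588 and 6.38 CPM, Col27a1 between 2.06 and 4.98 CPM and Col24a1 between 0.127 and 2.49 CPM. None of these 4 was called by edgeR in the 14 libraries. DESeq2 called Col5a3 higher after microbeads, as did edgeR with RLE factors, no filter or the stricter filter (0.66 to 0.67) and without saline replicate 3 (1.02) or microbead replicate 2 (0.74), but it was at 0.37 (adjusted p = 0.414) with 16 libraries and 0.31 (adjusted p = 0.417) with the length trend removed. Against aged nerves it was called higher with the length trend removed (0.70, adjusted p = 0.0417), with no filter (0.64) and with only the 2 groups in the fit (0.61). The defining markers of cartilage and bone other than Sox9, which astrocytes express, summed to between 1.34 and 5.24 CPM per library.

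**Figure D2:**
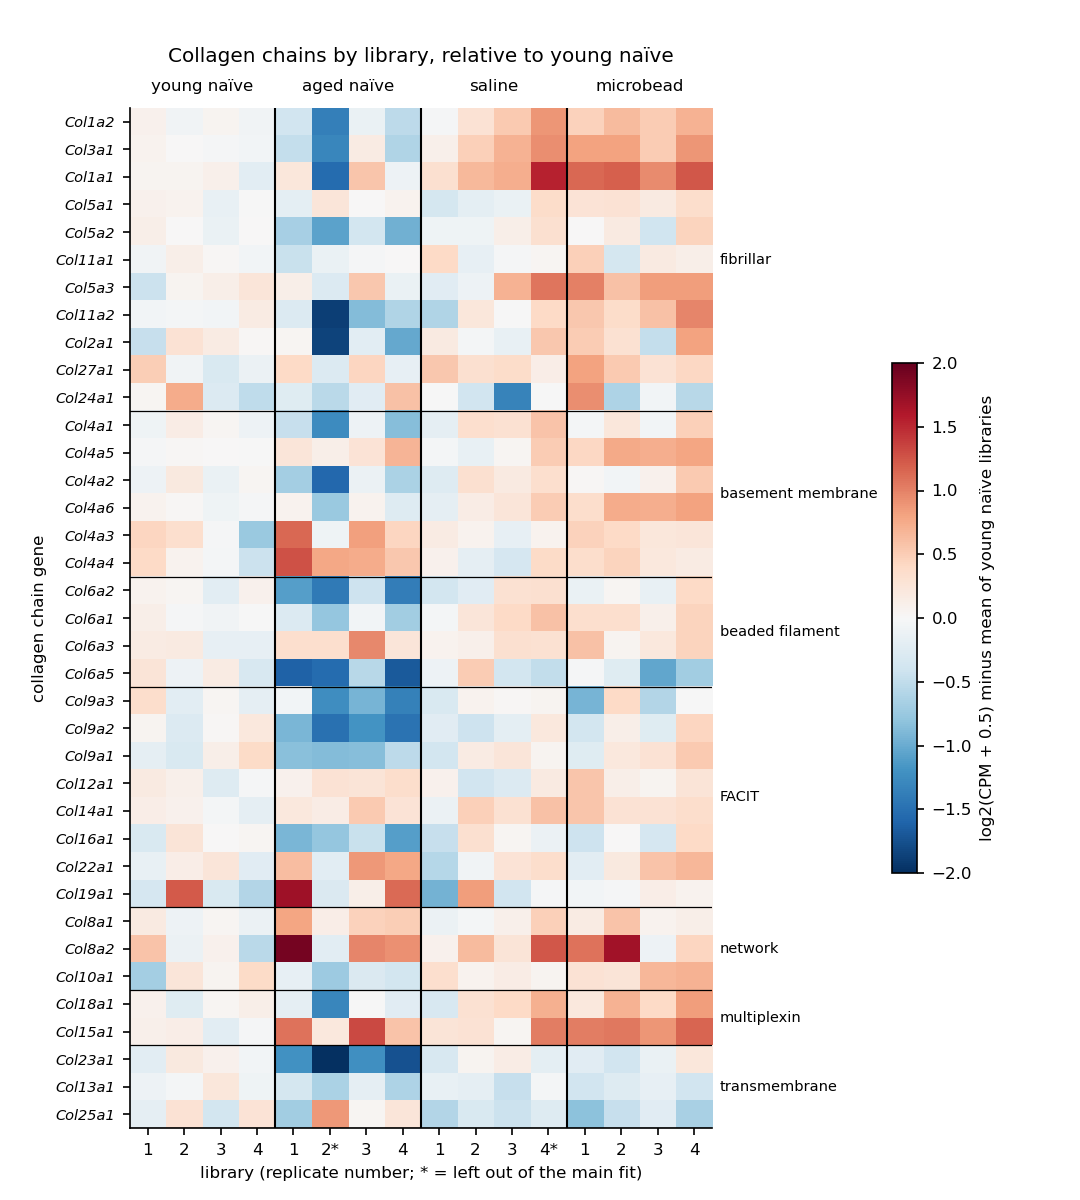
Heat map of log2(CPM + 0.5) minus the mean of the young libraries for each of the 37 tested collagen chains (rows, by class) in each of the 16 libraries (columns, by group). Columns marked with an asterisk were left out of the tests. In the aged columns Col15a1, Col4a4 and Col8a1 are high and Col23a1, Col9a2 and Col6a5 are low, while most fibrillar rows are high in the microbead-injected columns.

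The 6 type IV chains lie head to head in 3 pairs on chromosomes 8, 1 and X, and each pair shares its start region. Col4a3 and Col4a4, whose products join with the α5 chain in specialised basement membranes such as that of the kidney glomerulus, were both higher in the aged nerve. Col4a3 was at 15.5, 14.6, 11.2 and 6.64 CPM in the young, 26, 10.7, 20.5 and 15.5 in the aged, 12.8, 12, 10.1 and 12 in the saline-injected and 16, 15.2, 13.4 and 13.6 in the microbead-injected libraries. Aged replicate 2 fell inside the young range, whereas the other 3 aged libraries were above it, replicate 4 only just. The change with age was 0.80 ± 0.22 (adjusted p = 0.00676) and was lost without aged replicate 1 (0.60), with all 16 libraries (0.61, adjusted p = 0.0706), with the length trend removed (0.47, adjusted p = 0.0669), with only the 2 groups in the fit (0.80) and within library code 3 (0.97).

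Col4a4 was at 11, 8.59, 7.89 and 5.92 CPM in the young, 20.4, 14.2, 14 and 12.1 in the aged, 8.73, 7.15, 6.34 and 10.8 in the saline-injected and 10.5, 11.2, 9.54 and 9.14 in the microbead-injected libraries. All 4 aged libraries were above all other libraries. The change with age was 0.91 ± 0.21 (adjusted p = 0.00136), and it was 0.87 (adjusted p = 0.00478) with 16 libraries and 0.59 (adjusted p = 0.0217) with the length trend removed. It was also the only chain called lower in microbead-injected than in aged nerves, at -0.64 ± 0.20 (adjusted p = 0.0275), which was not called with 16 libraries (-0.60, adjusted p = 0.0562), with the length trend removed (-0.54, adjusted p = 0.0465), or without aged replicate 1 (-0.38), microbead replicate 3 (-0.61) or microbead replicate 4 (-0.59).

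Of the X-linked pair, Col4a5 was called higher after microbeads. Col4a5, on chromosome X from 141475419 to 141689235 (mm10), was at 45.4, 46.5, 46.3 and 45.4 CPM in the young, 54.2, 49.6, 55.6 and 73.6 in the aged, 44.6, 41.2, 47 and 65.6 in the saline-injected and 61.1, 78.1, 76.6 and 79.7 in the microbead-injected libraries. The microbead-injected libraries were all above saline replicates 1 to 3, and saline replicate 4 lay among them. The fold change after microbeads was 0.73 ± 0.11 (adjusted p = 0.000132), the smallest p of any collagen chain in that comparison. It was 0.38 (adjusted p = 0.0383) with the length trend removed and 0.57 (adjusted p = 0.206) with 16 libraries, neither called. With age it was 0.42 ± 0.11 (adjusted p = 0.00454), under the fold minimum.

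Col4a6 was at 47.3, 45.7, 42.5 and 44.3 CPM in the young, 47.2, 26.7, 47.3 and 37.6 in the aged, 39.8, 49.7, 53.5 and 64.1 in the saline-injected and 57.4, 75.6, 74.9 and 79 in the microbead-injected libraries. The aged and young groups overlapped, and the microbead-injected libraries were above all libraries but saline replicate 4. The fold change was 0.58 ± 0.12 (adjusted p = 0.00159) after microbeads, just under the minimum, which it passed without saline replicate 2 (0.61), saline replicate 3 (0.67) or microbead replicate 1 (0.67). It was 0.47 (adjusted p = 0.206) with 16 libraries and 0.23 (adjusted p = 0.271) with the length trend removed. With age it was -0.02 ± 0.12 (adjusted p = 0.929). The per kilobase ratio of Col4a6 to Col4a5 was 0.897 to 1.02 in the young libraries and 0.499 to 0.851 in the 4 aged libraries.

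The pair of Col4a1 and Col4a2 encodes the chains of nearly all basement membranes. Over the 16 libraries Col4a1 ran from 33.5 to 120.0 CPM and Col4a2 from 18.3 to 79.9 CPM. Neither was called with age, at -0.43 ± 0.18 (adjusted p = 0.0569) and -0.45 ± 0.17 (adjusted p = 0.0409), although both were called lower with 16 libraries, at -0.60 (adjusted p = 0.0352) and -0.66 (adjusted p = 0.0318), and without aged replicate 3 alone, at -0.64 and -0.66. With the length trend removed both were also called lower with age, at -0.75 (adjusted p = 0.00542) and -0.76 (adjusted p = 0.00209). Both were higher in microbead-injected than in aged nerves, at 0.59 ± 0.18 (adjusted p = 0.0228) and 0.61 ± 0.17 (adjusted p = 0.0174). For Col4a1 this call was lost without aged replicate 1 (0.58), aged replicate 4 (0.42), microbead replicate 2 (0.57) or microbead replicate 4 (0.47). For Col4a2 it was lost without aged replicate 1 (0.50), aged replicate 4 (0.52) or microbead replicate 4 (0.46). Of 12 endothelial markers, from cells that make these chains, 5 were lower with age and 0 higher. Between microbead-injected and saline-injected nerves 3 were lower and 1 higher. In that comparison neither chain was called. Col4a1 ran from 70.9 to 101.7 CPM with saline (kept libraries) and from 78.1 to 112.8 CPM with beads. For Col4a2 these ranges were 46.4 to 69.6 and 53.5 to 79.9 CPM. The endothelial sum was 1022 to 1122 CPM in the young and 771 to 911 CPM in the kept aged libraries. It was 1136 to 1222 CPM in the kept saline-injected libraries and 900.2 to 1088 CPM after microbeads. The part of endothelial cells in the result was not tested. In bulk tissue fewer cells of a type and less RNA per cell cannot be told apart.

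**Figure D3:**
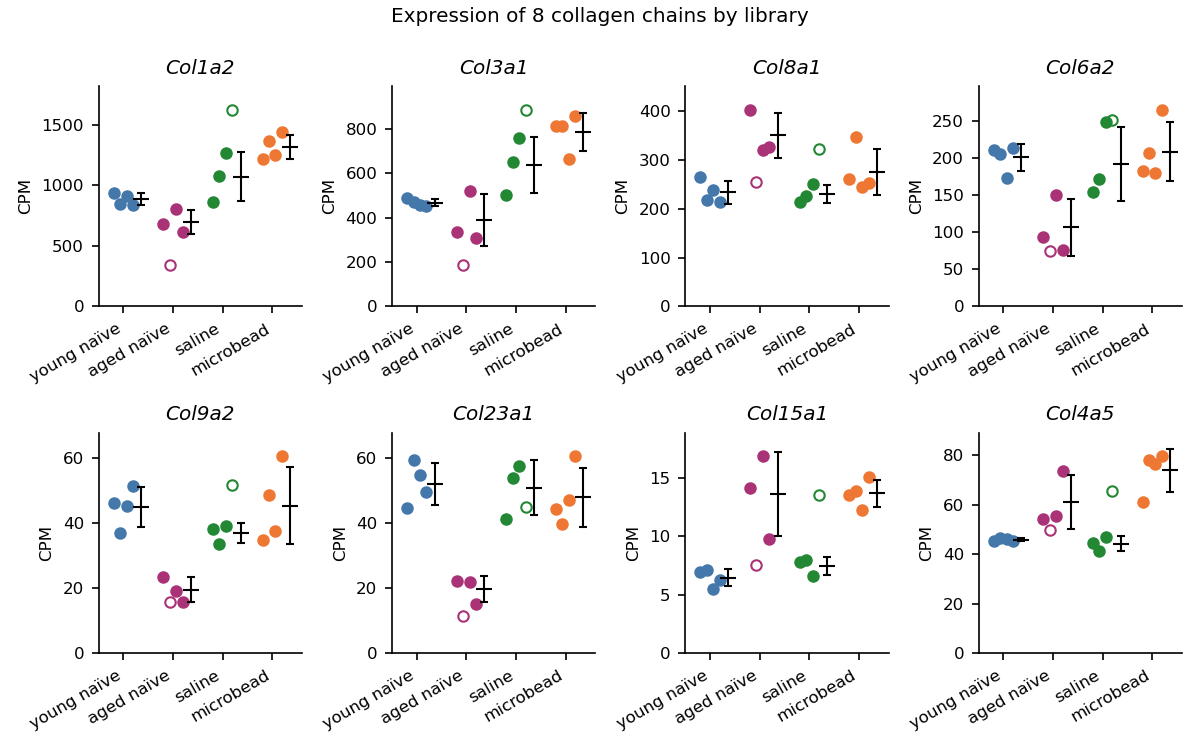
CPM of selected collagen chains in each of the 16 libraries by group, on linear axes that begin at 0. Filled points are the 14 tested libraries, open points the 2 left out, and the black bar is the mean ± SD of the filled points. Col23a1 lies between 11.4 and 22.1 CPM in the aged libraries and between 39.6 and 60.5 CPM in every other library.

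Type VI collagen is assembled from the α1 and α2 chains together with α3 or one of its relatives, among them α5. Col6a2 was at 210.5, 205, 173 and 213 CPM in the young, 92.8, 74.4, 149.7 and 76.3 in the aged, 154, 172, 248 and 251 in the saline-injected and 182, 206, 179.6 and 265 in the microbead-injected libraries. The aged group lay below the young group without overlap, at -0.90 ± 0.24 (adjusted p = 0.00714), though replicate 3 came close to it. The call was lost without aged replicate 1 (-0.81) and without aged replicate 4 (-0.71). After microbeads the difference from saline was 0.12 ± 0.23 (adjusted p = 0.732).

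Col6a1 was at 180.0, 164, 158 and 165 CPM in the young, 138, 97.2, 161 and 103 in the aged, 161, 197, 220.0 and 251 in the saline-injected and 211, 211, 178 and 227 in the microbead-injected libraries. It was not called with age, at -0.30 ± 0.13 (adjusted p = 0.0696), and the ratio of Col6a1 to Col6a2 per kilobase was 0.726 to 0.856 in the young and 1.01 to 1.40 in the 4 aged libraries. Col6a3 was higher in all 4 aged libraries (33.5 to 55.6 CPM) than in all young libraries (25.0 to 31.9 CPM), but at 0.56 ± 0.17 (adjusted p = 0.0109) it just missed the fold minimum. It passed without young replicate 1 (0.62), young replicate 2 (0.62), aged replicate 1 (0.67) or aged replicate 4 (0.70), but was at 0.20 (adjusted p = 0.322) with the length trend removed.

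Col6a5, the alternative α5 chain, was at 6.93, 5.31, 6.51 and 4.47 CPM in the young, 1.53, 1.65, 3.76 and 1.44 in the aged, 5.29, 8.35, 4.31 and 3.91 in the saline-injected and 5.64, 4.77, 2.54 and 3.33 in the microbead-injected libraries. Aged replicate 3 stood apart from the other aged libraries but stayed below the young range. The change with age was -1.34 ± 0.36 (adjusted p = 0.00497), and it was -1.12, not called, without aged replicate 1 and likewise without aged replicate 4.

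**Figure D4:**
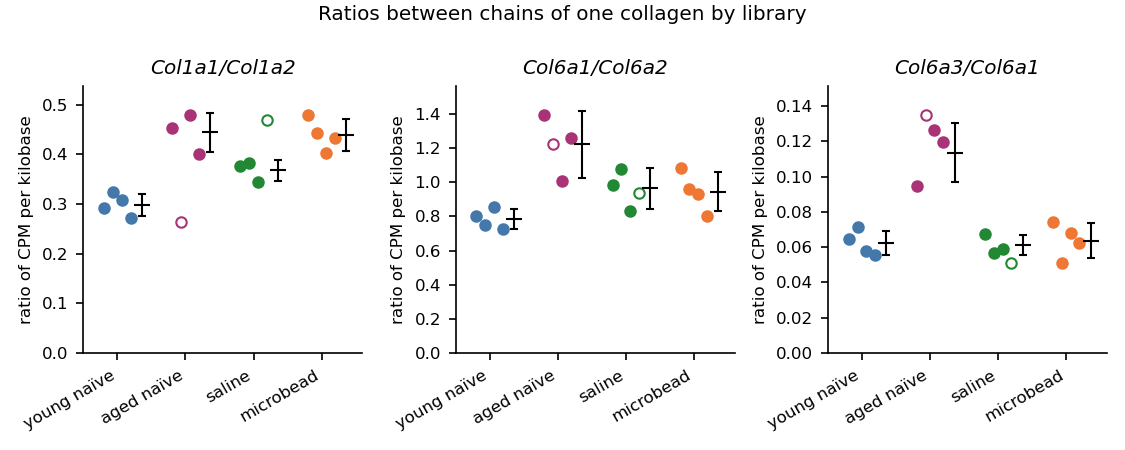
Ratio of the levels per kilobase of chains of the same molecule, in each of the 16 libraries by group, on linear axes. Open points are the 2 libraries left out of the tests, and the black bar is the mean ± SD of the filled points. The ratio of Col6a3 to Col6a1 is 0.0947 to 0.135 in the 4 aged libraries and at most 0.0742 in all others.

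Type IX collagen is a FACIT molecule of α1, α2 and α3 chains known best from cartilage and vitreous. Col9a2 was at 46.2, 36.7, 45.3 and 51.4 CPM in the young, 23.4, 15.5, 19.2 and 15.7 in the aged, 38.1, 33.4, 39 and 51.7 in the saline-injected and 34.6, 48.5, 37.6 and 60.5 in the microbead-injected libraries. Every aged library was below every other library. The change with age was -1.19 ± 0.19 (adjusted p = 5.97e-05), and it kept its call in each of the 7 fits without a library and under the 10 other alternatives tried. After microbeads the difference was 0.29 ± 0.18 (adjusted p = 0.214).

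Col9a1 was at 28.3, 25.9, 35 and 41.9 CPM in the young, 17.8, 17.4, 17.7 and 22.2 in the aged, 24.9, 36.2, 38.2 and 33.6 in the saline-injected and 27, 37.2, 39.6 and 46.3 in the microbead-injected libraries. It too was lower in all aged libraries, at -0.76 ± 0.20 (adjusted p = 0.00519), but the call was lost without aged replicate 1 (-0.71) and without aged replicate 3 (-0.70). Col9a3 was at 77.8, 52.1, 62.4 and 53.3 CPM in the young, 58.6, 25.4, 31.5 and 23.3 in the aged, 49.1, 63.5, 61.7 and 63.2 in the saline-injected and 31.7, 80.3, 40.1 and 60.0 in the microbead-injected libraries. Its spread within groups was wide, since aged replicate 1 reached the young range and microbead replicates 1 and 2 differed by more than any young pair. It was not called, at -0.68 ± 0.36 (adjusted p = 0.138) with age, where it was called without aged replicate 1 (-1.15), and -0.14 ± 0.35 (adjusted p = 0.797) after microbeads.

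Col16a1, a FACIT chain of fibril surfaces and fibroblasts, was at 16.2, 24.2, 20.1 and 20.5 CPM in the young, 10.4, 11.5, 14.7 and 9.07 in the aged, 14.4, 25.3, 20.7 and 18.5 in the saline-injected and 14.9, 20.1, 15.7 and 26.5 in the microbead-injected libraries. All aged libraries were below all young libraries, at -0.81 ± 0.23 (adjusted p = 0.00873), and the call was lost without young replicate 2 (-0.72), aged replicate 1 (-0.75) or aged replicate 4 (-0.68). Col22a1, known from tissue junctions such as that of muscle and tendon, went the other way. It was at 6.04, 7.46, 8.11 and 5.68 CPM in the young, 10.6, 5.76, 12.7 and 12 in the aged, 4.36, 6.44, 8.24 and 8.77 in the saline-injected and 5.77, 7.84, 10.3 and 11 in the microbead-injected libraries. The kept aged libraries were above the young, at 0.80 ± 0.23 (adjusted p = 0.00693), but aged replicate 2 was not, and the call was lost with 16 libraries (0.60, adjusted p = 0.0939), with the length trend removed (0.48, adjusted p = 0.111) and without aged replicate 3 (0.73). Col12a1 (39.8 to 77.0 CPM), Col14a1 (22.6 to 38.5 CPM) and Col19a1 (0.264 to 4.25 CPM) were called in no comparison. Without young replicate 2, Col19a1 was called higher with age (2.12), and without saline replicate 1, Col12a1 was called higher after microbeads (0.59).

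Type VIII collagen forms the hexagonal lattice of Descemet's membrane in the cornea and is also made by vessel walls. Col8a1 was at 265, 217, 238 and 214 CPM in the young, 403, 255, 321 and 327 in the aged, 214, 226, 249.9 and 323 in the saline-injected and 261, 347, 244 and 252 in the microbead-injected libraries. The 3 kept aged libraries were above all young libraries, and aged replicate 2 was within the young range. The change with age was 0.60 ± 0.12 (adjusted p = 0.000495). It was called in 4 of the 7 fits without a library and lost without young replicate 2 (0.57), young replicate 4 (0.56) or aged replicate 1 (0.48), with 16 libraries (0.49, adjusted p = 0.0238) and with the length trend removed (0.31, adjusted p = 0.0535).

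Col8a2 was at 73.4, 45.7, 52.5 and 33.9 CPM in the young, 189, 42.9, 97.5 and 94.2 in the aged, 52.8, 76.7, 59 and 118 in the saline-injected and 106, 159.6, 46.3 and 66.5 in the microbead-injected libraries. Its mean change with age was larger than that of Col8a1, at 1.31 ± 0.43 (adjusted p = 0.0266), but its spread was wide and it did not pass p under 0.01 in edgeR, while DESeq2 called it and edgeR did without young replicate 1 (1.54). Together the network-forming chains took 8.49% to 10.3% of the collagen CPM in the young and 13.0% to 20.6% in the 4 aged libraries. Epithelial markers of cornea and skin other than Cdh1 summed to at most 0.953 CPM in any library, and Cdh1 itself was at 14.2 to 34.6 CPM. The list holds epithelial markers only and does not cover other cells of the cornea. Which cells Col8a1 and Col8a2 came from was not tested. Col10a1, the third network-forming chain, was between 2.47 and 7.43 CPM and is named below.

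The multiplexins carry fragments in their C-terminal parts that are known to act on vessel growth. Col15a1, on chromosome 4 from 47208012 to 47313165 (mm10), was at 6.93, 7.12, 5.49 and 6.28 CPM in the young, 14.2, 7.52, 16.9 and 9.79 in the aged, 7.80, 7.95, 6.59 and 13.5 in the saline-injected and 13.5, 13.9, 12.3 and 15 in the microbead-injected libraries. All aged and all microbead-injected libraries were above all young libraries, and the microbead-injected ones overlapped the saline-injected group only through saline replicate 4. It was the only chain called in both main comparisons, at 1.09 ± 0.18 (adjusted p = 6.59e-05) with age and 0.87 ± 0.18 (adjusted p = 0.00133) after microbeads. The call with age held in each of the 7 fits without a library and the 10 other alternatives. The call after microbeads held in its 7 fits without a library but not with the length trend removed (0.55, adjusted p = 0.0284) or with 16 libraries (0.60, adjusted p = 0.212).

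Col18a1, the other multiplexin and the source of endostatin, was at 106, 84, 103 and 107 CPM in the young, 87.6, 40.0, 98.9 and 84.8 in the aged, 79.3, 123, 131 and 163 in the saline-injected and 115, 161, 132 and 179 in the microbead-injected libraries. It was not called in either main comparison, at -0.13 ± 0.17 (adjusted p = 0.547) with age and 0.39 ± 0.17 (adjusted p = 0.0858) after microbeads. Saline replicate 1 was the lowest of the injected libraries.

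Among transmembrane collagens, Col23a1 had the smallest p of any chain with age. Col23a1, on chromosome 11 from 51289920 to 51583925 (mm10), was at 44.5, 59.3, 54.6 and 49.5 CPM in the young, 22.1, 11.4, 21.7 and 15.1 in the aged, 41.3, 53.6, 57.4 and 44.9 in the saline-injected and 44.2, 39.6, 47 and 60.5 in the microbead-injected libraries. The highest aged library lay below the lowest of all others by a wide margin. The change was -1.39 ± 0.17 (adjusted p = 4.35e-06) with age, -1.55 (adjusted p = 3.35e-05) with 16 libraries and -1.68 (adjusted p = 1.28e-06) with the length trend removed, and -0.09 ± 0.16 (adjusted p = 0.683) after microbeads. Col13a1, between 6.11 and 11.5 CPM, and Col25a1, between 1.05 and 4.47 CPM, were called in no comparison.

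The first comparison asked how the nerve head changed with age. Of the 37 tested chains 5 were higher and 7 lower in aged than in young nerves, beside 15.1% of all genes tested that were called higher and 11.4% called lower. The higher chains were Col15a1, Col4a4, Col4a3, Col22a1 and Col8a1, and the lower ones Col23a1, Col9a2, Col6a5, Col6a2, Col16a1, Col9a1 and Col5a2. By class, 1 of 11 fibrillar chains was lower, 2 of 6 type IV chains were higher, and 3 of the 20 other tested chains were higher and 6 lower. In either direction 26.5% of all genes were called. The median log2 fold change of the tested chains was -0.13 against 0.02 over all genes, with 23 chains below 0.

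With all 16 libraries 2 chains were higher and 9 lower (all genes 11.3% and 8.41%, together 19.7%): Col4a3, Col22a1 and Col8a1 were no longer called, and Col4a1 and Col4a2 were called lower. With the length trend removed 2 were higher and 11 lower (all genes 10.2% and 10.5%), and the median of the tested chains was -0.45. In that fit Col11a2, Col1a2, Col4a1 and Col4a2 were called lower in addition. Of the 11 fibrillar chains 3 were then lower, and 11 had fold changes below 0. Col23a1, Col9a2, Col15a1 and Col4a4 kept their calls in every fit without a library and every other alternative run. Fibroblast markers moved in the same comparison: 6 of 15 were lower and 1 higher, and their sum without Ptgds was 5313 to 5968 CPM in the young and 4032 to 4708 CPM in the kept aged libraries, but 6456 CPM in aged replicate 2. With Ptgds, the most abundant of them, the sum was 26486 to 32361 CPM in the young and 8973 to 17246 CPM in the kept aged libraries. In aged replicate 2 it was 45740.5 CPM. The part of fibroblasts in the collagen result was not tested.

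**Figure D5:**
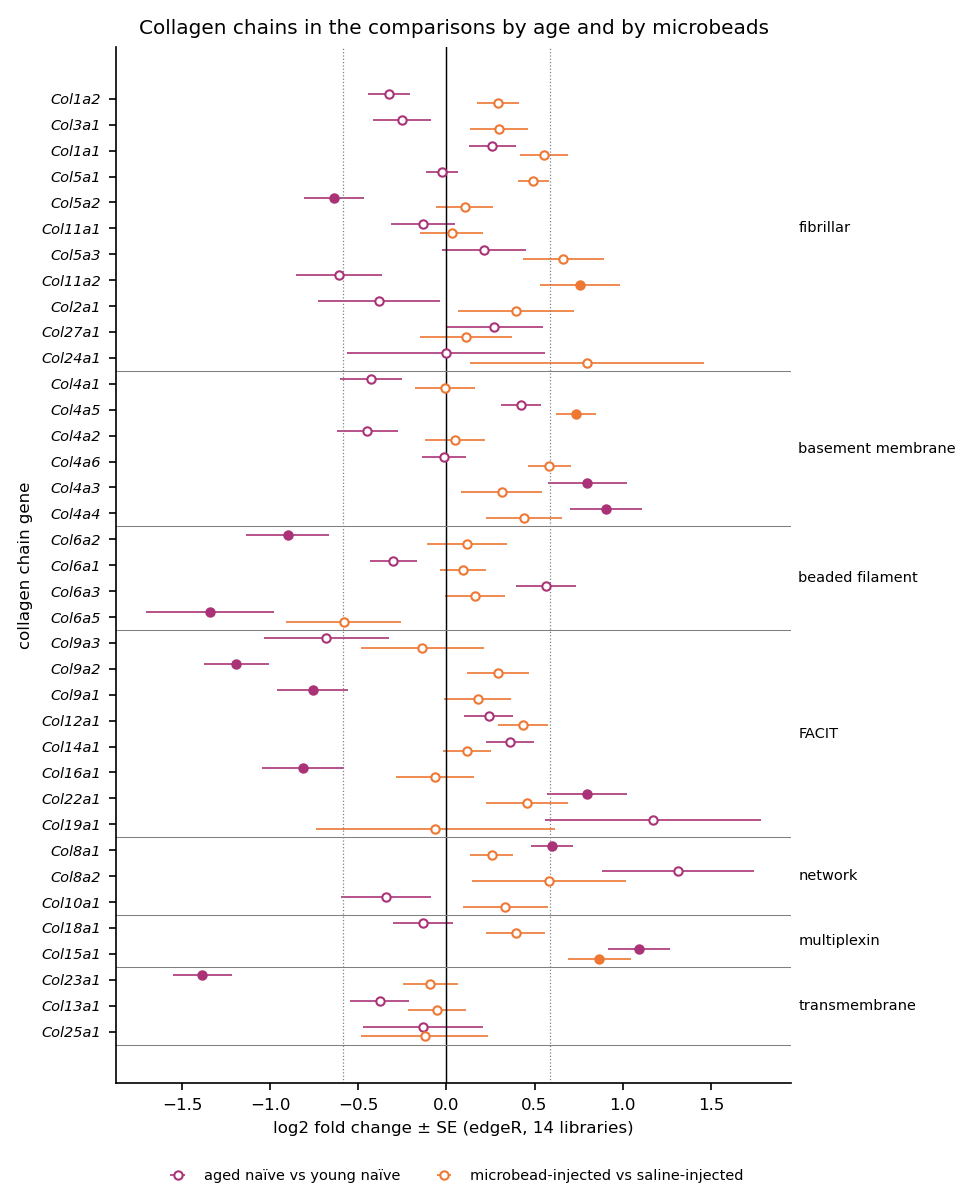
Log2 fold change ± SE of the 37 tested collagen chains, by class, for aged against young naïve and for microbead-injected against saline-injected nerves. Filled points were called, and dotted lines mark the 1.5-fold minimum. The aged comparison has 5 called chains above 0 and 7 below, the microbead comparison 3 above and 0 below.

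The second comparison asked what 4 weeks of raised pressure did beyond a saline injection. Only 3 of the 37 tested chains were called, Col4a5, Col15a1 and Col11a2, all higher, and 0 lower, where 9.39% of all genes were called higher and 3.06% lower. The share of chains called is thus near that of all genes. In edgeR 11 chains were at an unadjusted p under 0.05, and DESeq2 called 4. Of the 37 fold changes 29 were above 0, among them 11 of 11 fibrillar, 5 of 6 type IV and 13 of 20 other chains. The medians were 0.39, 0.38 and 0.14, and the median of all chains tested was 0.29 against -0.01 over all genes. Of 15 fibroblast markers 2 were higher and 2 lower here. Without Ptgds, the most abundant of them, their summed range with beads (4489.6 to 5676 CPM) overlapped the kept saline range (5337 to 6863 CPM) but reached lower. Saline replicate 4 was at 4558 CPM without Ptgds. With Ptgds the ranges also overlapped, at 22465 to 33104 CPM with beads and 16094.5 to 32418.5 CPM in the kept saline libraries, and the bead range then reached higher. The part of fibroblasts in this comparison was not tested.

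Fold changes went with gene length in this comparison. Over all genes tested, Spearman's rho between exon length and fold change was 0.56 in this comparison, and over the 37 chains it was -0.00. Once the length trend was removed the median of the chains was -0.03 against -0.04 over all genes, 0 chains were called higher and only Col6a5 was called lower, at -0.98 (adjusted p = 0.0434), where 4.73% of all genes were higher and 1.93% lower, together 6.66%. Of the 37 corrected fold changes 16 were above 0, among them 6 of 11 fibrillar, 3 of 6 type IV and 7 of 20 other chains. With all 16 libraries edgeR called 0 of 36 chains, with 6 at an unadjusted p under 0.05, and it called none of the 14417 genes tested in that fit. DESeq2 was run on the 14 libraries only. Within the libraries that carry code 4 in the labels, whose meaning the labels do not give, 4 chains were called. The count was 2 without microbead replicate 4, 5 without saline replicate 2 and 6 without saline replicate 3.

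Because a call in one comparison and its lack in the other do not show a difference, the responses to microbeads and to age were compared directly in the same fit. The responses share no library. They differed in 7 chains at adjusted p under 0.05, each toward microbead injection, where 6.71% of all genes differed in this direction and 4.08% in the other. The difference in log2 fold change was 1.49 ± 0.26 (adjusted p = 0.00298) for Col9a2, 1.29 ± 0.23 (adjusted p = 0.00336) for Col23a1, 1.37 ± 0.33 (adjusted p = 0.0148) for Col11a2, 0.52 ± 0.13 (adjusted p = 0.0155) for Col5a1, 0.62 ± 0.17 (adjusted p = 0.0246) for Col1a2, 0.60 ± 0.17 (adjusted p = 0.0353) for Col4a6 and 0.93 ± 0.28 (adjusted p = 0.0415) for Col9a1. In Col9a2, Col23a1 and Col9a1 the aged group was the low group, whereas in Col5a1 and Col4a6 the microbead-injected libraries were above all others of the 14. Col15a1, called in both comparisons, had a difference of -0.22 ± 0.25 (adjusted p = 0.620).

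Col9a2, Col23a1, Col11a2 and Col5a1 kept adjusted p under 0.05 in all 14 fits without a library. Col1a2 lost it without aged replicate 1 (0.60), aged replicate 4 (0.53) or microbead replicate 4 (0.58). Col4a6 lost it in 9 of the 14 fits, with values of 0.49 to 0.69 over the 14, and Col9a1 in 10, with values of 0.77 to 1.06. Without aged replicate 3 the responses also differed in Col3a1 (0.82), Col5a2 (0.91) and Col6a2 (1.35), without saline replicate 3 in Col6a2 (1.25), without microbead replicate 3 in Col5a2 (0.87) and without microbead replicate 2 in Col8a1 (-0.47). The number of chains was 4 without aged replicate 4, 4 without microbead replicate 4, and 6 with the length trend removed (all genes 7.26% and 4.33%). With 16 libraries it was 3, namely Col9a2, Col23a1 and Col9a1 (all genes 2.82% and 1.15%, together 3.97%).

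Microbead-injected and aged nerves were also compared directly, with the aged libraries of the first comparison and the microbead-injected libraries of the second. Of the 37 tested chains 16 were higher after microbeads and 1, Col4a4, was lower, where 6.07% of all genes were called higher and 4.78% lower. The 16 were 5 of 11 fibrillar chains (Col1a2, Col1a1, Col3a1, Col11a2 and Col5a2), 3 of 6 type IV chains (Col4a6, Col4a2 and Col4a1) and 8 of 20 others (Col23a1, Col9a2, Col9a1, Col6a1, Col6a2, Col18a1, Col10a1 and Col16a1). The fold changes of chains not given above were 1.21 ± 0.18 (adjusted p = 0.000284) for Col9a2, 1.26 ± 0.17 (adjusted p = 8.30e-05) for Col23a1, 1.28 ± 0.24 (adjusted p = 0.000998) for Col11a2, 0.96 ± 0.20 (adjusted p = 0.00288) for Col9a1 and 0.95 ± 0.24 (adjusted p = 0.0118) for Col6a2. They were 0.83 ± 0.25 (adjusted p = 0.0219) for Col10a1, 0.75 ± 0.23 (adjusted p = 0.0270) for Col16a1, 0.73 ± 0.17 (adjusted p = 0.00489) for Col5a2, 0.69 ± 0.12 (adjusted p = 0.000795) for Col4a6, 0.68 ± 0.17 (adjusted p = 0.00896) for Col18a1 and 0.61 ± 0.13 (adjusted p = 0.00347) for Col6a1. In Col5a2 the groups overlapped, since aged replicate 3 was above microbead replicate 3.

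The median of the tested chains was 0.59 against 0.00 over all genes. The counts were 16 and 0 with all 16 libraries (all genes 5.80% and 4.20%) and 17 and 0 with the length trend removed (6.39% and 4.24%). They fell to 10 chains without aged replicate 4 and to 9 without microbead replicate 4, the libraries on which most lost calls turned. Without aged replicate 4 the calls of Col10a1 (0.78), Col16a1 (0.61), Col18a1 (0.64), Col6a1 (0.45) and Col6a2 (0.76) were lost. Without microbead replicate 4 those of Col10a1 (0.74), Col16a1 (0.55), Col18a1 (0.57), Col6a1 (0.56) and Col5a2 (0.58) were lost. Col10a1 was also lost without aged replicate 3 (0.82) or microbead replicate 3 (0.76), and Col16a1 without aged replicate 1 (0.68) or microbead replicate 2 (0.73). Without aged replicate 3, Col6a5 (1.42) and Col5a3 (0.85) were called in addition, and without microbead replicate 3, Col2a1 (0.97). Called in all 7 fits without a library were Col11a2, Col1a1, Col1a2, Col23a1, Col3a1, Col4a6, Col9a1 and Col9a2. Fibroblast markers went the same way, 4 of 15 higher and 0 lower, and their sum without Ptgds was 4489.6 to 5676 CPM in the microbead-injected against 4032 to 4708 CPM in the kept aged libraries. With Ptgds the sum was 22465 to 33104 CPM in the microbead-injected against 8973 to 17246 CPM in the kept aged libraries. Of 12 endothelial markers 4 were higher and 1 lower, and of 10 astrocyte markers 4 were higher and 0 lower. The part of these cell types was not tested. These groups differ in age, in injection and largely in library code, and the effects of these cannot be told apart. Only 1 kept aged library carries code 4 and none code 5, too few for a comparison within a code.

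Saline injection was compared with the young naïve nerve as the background of the surgery, with the young libraries of the first comparison and the saline-injected libraries of the second. No collagen chain was called by edgeR or by DESeq2, where 0.00688% of all genes were called in either direction by edgeR. DESeq2 had 1 chain at an adjusted p under 0.05 that did not meet all thresholds, and edgeR had 0. In edgeR 4 chains, all fibrillar, were at an unadjusted p under 0.05. Col1a1 was the first of these, at 0.58 ± 0.13 (adjusted p = 0.130), and every saline-injected library was above every young library. Col3a1 was at 0.45 ± 0.16 (adjusted p = 0.280), Col1a2 at 0.28 ± 0.12 (adjusted p = 0.344) and Col5a1 at -0.22 ± 0.09 (adjusted p = 0.335). With 16 libraries 0 chains were called, with 4 at an unadjusted p under 0.05, and with the length trend removed 0 were called, with 6. All young libraries carry library code 3 and all saline-injected libraries code 4, so the injection and the library code cannot be told apart here. Without saline replicate 1, Col1a1 alone was called (0.69).

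Genes that make, export and crosslink collagen were described from lists of known function, and percentages of all genes called are those given above. Of 19 enzymes and chaperones of chain hydroxylation and folding, 1 was higher and 3 lower with age, and 1 was higher after microbeads. Serpinh1, the collagen chaperone Hsp47, was higher in both, at 0.87 ± 0.10 (adjusted p = 3.03e-06) with age and 0.75 ± 0.11 (adjusted p = 5.71e-05) after microbeads. P4ha3, a prolyl 4-hydroxylase subunit, was lower with age, at -1.40 ± 0.14 (adjusted p = 5.36e-07), as were Ppib, a prolyl isomerase, at -0.60 ± 0.07 (adjusted p = 2.63e-06), and Leprel2, a prolyl 3-hydroxylase, at -0.76 ± 0.12 (adjusted p = 6.53e-05). The enzymes and the chaperone therefore did not share a direction with age.

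Of 12 tested genes of procollagen export and cleavage, among 16 listed, 2 were higher and 3 lower with age, and 1 was higher after microbeads. Pcolce, the enhancer of procollagen C-proteinase, was at -0.98 ± 0.12 (adjusted p = 4.00e-06) with age, and Mia3, which loads procollagen into transport carriers, at -0.78 ± 0.15 (adjusted p = 0.000291). Of 7 crosslinking enzymes 1 was higher and 1 lower with age, and 2 were higher after microbeads. Loxl1, a lysyl oxidase of elastic fibres, was higher in both, at 1.18 ± 0.12 (adjusted p = 4.20e-07) and 0.84 ± 0.12 (adjusted p = 5.77e-05), Loxl2 was higher after microbeads, at 0.84 ± 0.16 (adjusted p = 0.000853), beside -0.07 ± 0.16 (adjusted p = 0.760) with age and a difference between these of 0.91 ± 0.23 (adjusted p = 0.0189), and the transglutaminase Tgm2 was lower with age, at -0.59 ± 0.20 (adjusted p = 0.0228).

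Of 9 tested collagen receptors 1 was higher and 1 lower with age and 2 were higher after microbeads. Ddr1, a receptor tyrosine kinase for collagen, was at 0.60 ± 0.10 (adjusted p = 8.09e-05) and 0.59 ± 0.10 (adjusted p = 0.000325), and the integrin chain Itga2 was lower with age, at -1.30 ± 0.38 (adjusted p = 0.00827). Among 19 tested proteoglycans and glycoproteins that bind fibrils, 2 were higher and 10 lower with age, at a median of -0.75 against 0.02 over all genes, and 2 were higher and 2 lower after microbeads. Fmod and Prelp, small leucine-rich proteoglycans of fibrils, were at -1.39 ± 0.16 (adjusted p = 5.62e-06) and -1.04 ± 0.11 (adjusted p = 1.38e-06) with age, and Bgn at -0.77 ± 0.11 (adjusted p = 2.44e-05). The basement membrane proteoglycan Hspg2 was higher in both, at 1.05 ± 0.11 (adjusted p = 7.16e-07) and 0.96 ± 0.11 (adjusted p = 1.07e-05). With 16 libraries no gene of these 5 lists was called after microbeads. With the length trend removed 1 gene of folding, 0 of export, 1 of crosslinking and 0 of the receptors were higher after microbeads, so Ddr1 lost its call. Of the fibril-binding genes 0 were then higher and 1 lower, so Hspg2 lost its call after microbeads. With age the length-corrected counts, higher and lower, were 1 and 4 for folding, 1 and 3 for export, 1 and 1 for crosslinking, 0 and 1 for receptors and 1 and 9 for fibril-binding genes, and Ddr1 was again not called. Against aged nerves, 8 of the 19 fibril-binding genes were higher in microbead-injected nerves and 0 lower.

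The 6 chains that did not pass the filter on low counts were Col7a1, Col28a1, Col6a4, Col6a6, Col17a1 and Col20a1. Col7a1 and Col17a1, the anchoring and hemidesmosome collagens of skin, reached at most 0.671 and 0.655 CPM. Col6a4 reached 0.403 CPM, Col6a6 1.56 CPM, Col28a1 1.51 CPM and Col20a1 1.81 CPM. Each had counts in 10 to 16 of the 16 libraries, and they were not tested in the 14 libraries. Col24a1 passed with 14 libraries but not with 16. Without aged replicate 3, Col6a6 passed the filter and was called lower with age, where the 2 aged libraries left held 0 counts of it.

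The kit does not mark strand, so reads where exons of neighbouring genes overlap cannot be told apart. Exons of 13 members were overlapped by another annotated gene (GENCODE M21), and of 5 by a gene in the count table. These were Col4a1 and Col4a2 with each other (22 bases), Col9a3 with Tcfl5 (234 bases), Col10a1 with Nt5dc1 (18 bases) and Col7a1 with Mir711 (36 bases on the same strand). These overlaps are those of GENCODE M21 and were not checked in the annotation used for counting. In the latter Col4a1 ends at 11312826 and Col4a2 begins at 11312829, without overlap. Values of these chains may be uncertain by what their partners contributed. Col4a3 shares 563 bases with the opposite-strand transcript C430014B12Rik, which was not in the table.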

How the data were processed

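Optic nerve heads were dissected, total RNA was extracted with a Qiagen micro kit, and libraries were prepared with the SMARTer Ultra Low Input RNA kit v3, which does not mark strand, and sequenced on an Illumina HiSeq2500. Per the labels the authors aligned reads with STAR 2.3.0 to mm10 and counted them per gene with featureCounts (version not given in the sources used here). Raw counts per gene are the deposited values used, with the chromosome, the exon coordinates and the exon length of each gene. The deposited comparison tables hold the authors' fold changes and p-values and were not used, except that their columns show which 14 of the 16 libraries the authors compared.

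Counts were analysed in R 4.3.3 with edgeR 4.0.16 (limma 3.58.1): filterByExpr by group, TMM factors, a robust quasi-likelihood fit of the 4 groups over 14 libraries, and Benjamini-Hochberg adjustment over 14541 genes. Thresholds were a fold change of 1.5, p of 0.01 and adjusted p of 0.05, or the last alone for the difference between responses. Replicates are separate pools, and no 2 libraries of a group agreed within sampling noise. Alternatives were all 16 libraries, RLE factors, no filter or a minimum of 10 counts in every library of a group, DESeq2 1.42.0, only the groups compared, no minimum fold, a replicate block, a loess trend with exon length removed (span 0.5), libraries of the same code, and each library left out. Library-code 4 for microbead-injected against aged nerves was added after seeing the data. Precision is limited by 3 or 4 pools per group.

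Values in every library are given for chains called in the 2 main comparisons, for those whose responses differed and for the 10 highest per kilobase, and at most 4 genes of each pathway list, those with the smallest p. The members and lists were chosen with earlier results of these data known. Sequences are from RefSeq on GRCm38.p6.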

Additional observations from a re-analysis of the deposited data

Results flagged for a closer look

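A gap test within each group of 4 libraries was run on 26 values, the summed CPM of the 3 classes and the CPM of each chain given in every library, which made 104 groups. In 8 of these a single library stood apart, where chance alone gives about 1 in 20. The summed CPM of the other chains was 1204 in young replicate 1 and 1072 to 1087 in the rest. Col11a2 was at 5.92 CPM in young replicate 4 against 5.03 to 5.08, and Col1a1 at 208 CPM in the same library against 249 to 256. Col4a5 was at 61.1 CPM in microbead replicate 1 against 76.6 to 79.7, and Col8a1 at 347 CPM in microbead replicate 2 against 244 to 261. Col6a5 was at 3.76 CPM in aged replicate 3 against 1.44 to 1.65, and Col9a1 at 22.2 CPM in aged replicate 4 against 17.4 to 17.8. Col9a3 was at 49.1 CPM in saline replicate 1 against 61.7 to 63.5.

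In 7 chains the response to microbeads differed from the response to age by a test of the difference itself in edgeR. On the log2 scale the difference was 1.49 in Col9a2, 1.37 in Col11a2, 1.29 in Col23a1, 0.93 in Col9a1, 0.62 in Col1a2, 0.60 in Col4a6 and 0.52 in Col5a1, each higher for microbeads.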

How the results depend on the processing

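No chain called in the main fit reversed its direction under any alternative run. Among all tested chains, called or not, signs did change. With the length trend removed 13 of 37 changed sign between microbead-injected and saline-injected nerves and 10 of 37 between saline-injected and young nerves. With age 4 of 37 did, and between microbead-injected and aged nerves 2 of 37. Of 39 member results, each a chain called in a comparison, 28 kept their call with all 16 libraries, 31 with the length trend removed and 35 with the replicate block, and all 39 with RLE factors, with no filter, with the stricter filter and with DESeq2. Between microbead-injected and saline-injected nerves the number of chains called moved from 3 to 0 with 16 libraries, 1 with the length trend removed, 5 with no filter on low counts, 5 with the replicate block and 7 with no minimum fold change, and was 2 to 6 without a library. Between microbead-injected and aged nerves it moved from 17 to 8 with the code 4 libraries, which hold a single aged library and so rest on 1 sample assumed to vary like the others, and was 9 to 18 without a library. For saline-injected against young nerves it was 0 to 1 without a library. Chains whose responses differed went from 7 to 3 with 16 libraries and 4 to 9 without a library. With 16 libraries the difference in mean log2 summed CPM for aged against young moved from -0.22 to -0.47 in the fibrillar and from -0.04 to -0.20 in the basement membrane class. The cause of these shifts was not tested.

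Without a library, 8 to 14 chains were called between aged and young nerves. The differences in mean log2 summed CPM were then -0.37 to -0.11 (fibrillar), -0.11 to 0.03 (basement membrane) and -0.10 to 0.08 (other) with age. They were 0.23 to 0.48, 0.19 to 0.37 and 0.11 to 0.30 after microbeads. Same-numbered deviations correlated at 0.14, -0.0028 and 0.33 for aged and young and at 0.10, -0.19 and 0.21 for the injected groups. The best differently numbered library gave 0.37, 0.09 and 0.15 for aged and young and 0.08, 0.23 and 0.12 for the injected groups. With so few pairs these values cannot decide whether replicate numbers pair the libraries. With the number as a block, 14 chains were called with age, 17 between microbead-injected and aged nerves and 0 between saline-injected and young nerves, and 6 differed between responses. The fit of only the groups compared and that by library code were not run for the difference between responses, which needs all groups. The call of Col11a2 after microbeads was lost with the block (0.69), and those of Col4a1 (0.56) and Col4a2 (0.58) between microbead-injected and aged nerves. Low counts limit what could be tested: 6 chains did not pass the filter.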
